A study of Homo sapiens with 7 samples.

Results

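The regions described are stretches of the human genome where HNF6, GATA6 and NKX6.1 were all found by chromatin immunoprecipitation and sequencing (ChIP-seq) during pancreatic differentiation of CyT49, an established human embryonic stem cell line. Members were selected on presence in the authors' peak lists: the NKX6.1 list of day 13 was merged with the day 10 lists of GATA6 and HNF6, regions that overlapped by 1 bp or more were joined, and the joined regions that held at least 1 region of each list were kept. This gave 781 regions among 77349 merged regions, or 1.01% of them. Of the 7 samples of the series, 4 have a peak list and 3 are inputs, which were not analysed here. On day 10 the cultures were at the stage labelled PE, with NKX6.1-positive progenitors per the labels' protocols, on day 13 at the stage labelled PP, and on day 5 at the gut tube stage labelled GTE. Each combination of factor and day has 1 library from 1 cell line, so nothing below has a replicate check and no test across samples could be made. The cells carry no label of treatment or genotype beyond the differentiation itself. The antibody label of each list matches its title, whereas the extraction protocol of all samples names only an NKX6.1 antibody and only days 5 and 10, and the input of day 13 has NKX6.1 as its antibody label. Factor, antibody and library change together between the 3 merged lists, and the NKX6.1 list also differs in day, so these cannot be told apart. The HNF6 lists of day 5 and day 10 differ in both day and library, which cannot be told apart either.

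HNF6, the product of ONECUT1, binds DNA through a cut domain and a homeodomain and acts early in the branch of foregut endoderm that gives liver and pancreas. GATA6 is a zinc finger factor that binds the GATA motif, and loss of a copy can leave a person without a pancreas. NKX6.1 is a homeodomain factor that appears in pancreatic progenitors and is later kept in insulin-producing beta cells. Lineage factors such as these often meet at enhancers, where several proteins bind within the length of a nucleosome, and a stretch held by several of them is commonly taken as a candidate enhancer.

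The scores below are the authors' own, whole numbers whose unit the sources leave unstated, and each was read only within its own list. The percent rank of a region is its rank from the top as a percent of its list, with ties at their mean rank, so low values are strong regions. The GATA6 list is partial, with 32.4% of its numbered peaks, and all 6285 listed GATA6 regions lay in a merged region with HNF6. Membership therefore amounts to an NKX6.1 region of day 13 on a merged region with HNF6 and listed GATA6 of day 10. This was the case for 781 of 6215 such regions (12.6%, Wilson 95% interval 11.8 to 13.4). With only scores of at least 50 kept in each list, the share was lower, at 427 of 4308 (9.91%, 9.055 to 10.84). Seen from the regions with HNF6 and NKX6.1, 781 of 2111 also held GATA6, or 37.0% (35.0 to 39.1). All intervals cover counting error only, and regions are not independent samples.

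Most members were simple in make-up. Exactly 1 region of each list made up 737 of the 781 (94.4%, 92.5 to 95.8). A further NKX6.1 region was found in 22 members, and 1 member, on chromosome 4 at 175381910 to 175383011 (hg19, as all positions here), held 3 NKX6.1 regions. A pair of HNF6 regions was found in 9 members and a pair of GATA6 regions in 15. In 699 members (89.5%, 87.2 to 91.5) at least 1 base pair was common to all 3 factors, and there the common stretch had a median of 116 bp (quartiles 85 and 152, longest 400). In the other members the factors touched in a chain. HNF6 and GATA6 overlapped directly in every member, which the make-up of the GATA6 list fixes, HNF6 and NKX6.1 in 744, and GATA6 and NKX6.1 in 737.

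Members had NKX6.1 regions of 130 bp at the median, narrower than those of GATA6 (334 bp) and HNF6 (415 bp), and the NKX6.1 region mostly lay within the others. The best NKX6.1 region lay wholly within the best HNF6 region in 562 members (72.0%, 68.7 to 75) and wholly within the best GATA6 region in 530 (67.9%, 64.5 to 71.0). For the 1330 regions with HNF6 and NKX6.1 but no GATA6 the first of these shares was 73.0% (70.6 to 75.3), and the intervals overlap. Members had a median width of 503 bp, with quartiles of 406 and 649 and a range of 225 to 1637 bp. The widest lay on chromosome 3 at 24639301 to 24640937, a single wide HNF6 region with a GATA6 and an NKX6.1 region in it.

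The members were strong HNF6 regions and, less markedly, strong GATA6 and NKX6.1 regions. Because the same lists chose them, these values are a description. The HNF6 score ran from 13 to 4237 with a median of 371, and 379 members (48.5%, 45.04 to 52.03) were in the strongest 10% of the HNF6 list. That share was 35.3% (34.1 to 36.6) for regions with HNF6 and GATA6 without NKX6.1, 26.3% (24.0 to 28.7) for HNF6 and NKX6.1 without GATA6, and 6.71% (6.51 to 6.92) for HNF6 alone. The median percent rank in the HNF6 list was 10.7 for members, 18.2 with GATA6 and no NKX6.1, 26.0 with NKX6.1 and no GATA6 and 53.2 for HNF6 alone. The order of the classes by HNF6 score was thus all 3 factors, HNF6 with GATA6, HNF6 with NKX6.1 and HNF6 alone.

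In the GATA6 list the members ranked higher than other regions with HNF6 and GATA6. Their GATA6 score had a median of 160 (quartiles 72 and 378) against 99 (54 and 216), and 159 members (20.4%, 17.7 to 23.3) were in the strongest 10% of that list against 8.63% (7.91 to 9.41) of the regions without NKX6.1. In the NKX6.1 list the members stood only a little above the regions with HNF6 and no GATA6, with a median score of 76 (45 and 157) against 70 (42 and 125), whereas NKX6.1 alone had a median of 52 (34 and 82). In the strongest 10% of the NKX6.1 list were 187 members (23.9%, 21.1 to 27.1), against 16.5% (14.6 to 18.6) with HNF6 only and 8.45% (7.97 to 8.95) of NKX6.1 alone.

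**Figure D1:**
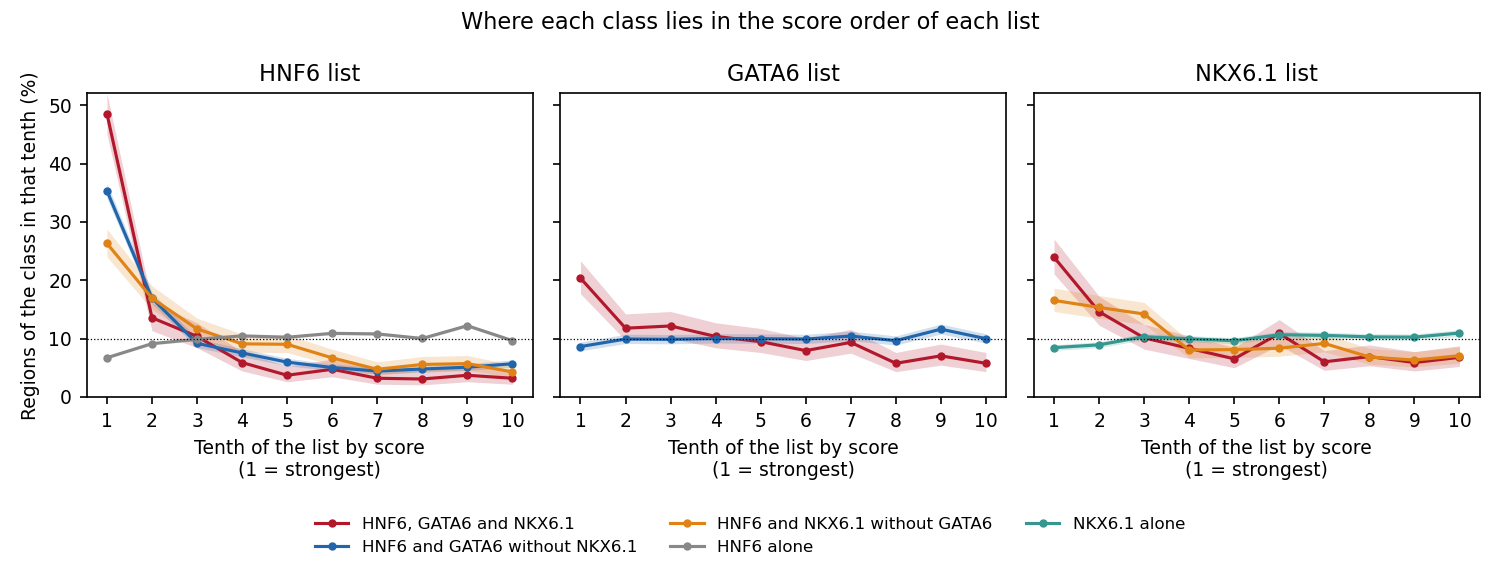
Share of each class of regions (y axis, percent, shading is the Wilson 95% interval) in each 10% step of a peak list ordered by the authors' score (x axis, 1 is the strongest step), with a panel for each list. The dotted line is the 10% that the whole list has in each step. Regions with all 3 factors peak in the strongest 10% of every list, at 48.5% in the HNF6 panel, 20.4% in the GATA6 panel and 23.9% in the NKX6.1 panel.

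Strength in a list went with strength in another only weakly. Across the 781 members Spearman's rho was 0.13 between HNF6 and GATA6 scores, 0.03 between HNF6 and NKX6.1 and 0.11 between GATA6 and NKX6.1. These are correlations across regions that share 3 libraries and are given as a description. In the strongest 10% of all 3 lists at once were 30 members (3.84%, 2.70 to 5.43), and 261 (33.4%) were in the strongest 10% of none. In the strongest 50% were 272 members in all 3 lists at once and 21 in none. The weakest member by mean percent rank lay on chromosome 17 at 69142038 to 69142271, where HNF6 scored 27, GATA6 34 and NKX6.1 15.

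NKX6.1 was more frequent where both of the other factors scored high. The 6215 regions with HNF6 and GATA6 were divided into quartile groups by each score. By GATA6 score, the share that held NKX6.1 went from 8.11% (6.85 to 9.57) in the lowest quartile group through 10.2% and 12.3% to 19.7% (17.8 to 21.7) in the highest. By HNF6 score it was 9.14% (7.80 to 10.7), 11.3%, 10.7% and, in the highest quartile group, 19.1% (17.2 to 21.1). Along GATA6 the share was higher in each successive quartile group, with overlapping intervals between neighbours below the highest, while along HNF6 the 3 lower quartile groups had overlapping intervals and only the highest stood apart.

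The 2 scores were also counted side by side, in smaller groups, whose shares can spread more widely for that reason alone. Of 502 regions in the lowest quartile group of both, 32 held NKX6.1 (6.37%, 4.55 to 8.86), and of 580 in the highest quartile group of both, 139 did (24.0%, 20.7 to 27.6). With the lowest HNF6 quartile group fixed, the share was 6.37% at the lowest and 14.9% (11.4 to 19.3) at the highest GATA6 quartile group. With the lowest GATA6 quartile group fixed, it was 6.37% at the lowest and 12.96% (9.47 to 17.5) at the highest HNF6 quartile group. A high score of either factor thus went with more NKX6.1 when the other was low. The rise was not steady in between. In the third HNF6 quartile group the share was 9.48, 8.82, 8.85 and 16.5% from the lowest to the highest GATA6 quartile group.

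**Figure D2:**
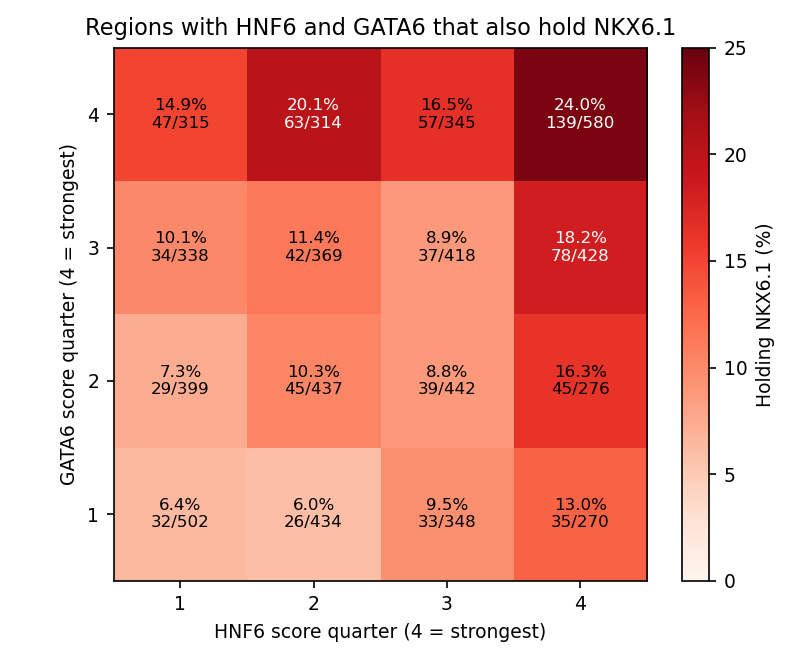
Share of regions with HNF6 and GATA6 that also held NKX6.1 (colour and percent, with counts below) by quartile group of the HNF6 score (x axis) and of the GATA6 score (y axis), with 4 as the strongest. The share is 6.37% where both scores are lowest and 24.0% where both are highest.

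Width moved with these shares. By the joint width of the HNF6 and GATA6 regions, NKX6.1 was found at 6.63% (5.50 to 7.97) of the narrowest quartile group, up to 350 bp, and at 19.3% (17.4 to 21.3) of the widest, from 556 bp. Within the narrowest quartile group, the share was 5.28% (3.68 to 7.53) at the lowest GATA6 quartile group and 12.4% (7.78 to 19.2) at the highest. Within the widest quartile group, these shares were 9.81% (6.78 to 13.99) and 22.5% (19.4 to 25.9). Widths still vary inside these groups, from 556 to 1671 bp in the widest, and the part of width in the shares was not tested.

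The share with GATA6 was also set beside the NKX6.1 score. Of the regions with HNF6 and NKX6.1, 34.3% (30.4 to 38.4) of the lowest NKX6.1 score quartile group also held GATA6, then 36.7% and 33.0%, and 43.9% (39.8 to 48.2) of the highest. The interval of the highest quartile group overlapped that of the second, 32.7 to 40.9, and lay above those of the lowest and the third (29.1 to 37.1).

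Several rows for 1 region, which the peak names mark with letters, were more frequent in members. The best HNF6 region was listed in 2 or more rows in 104 members (13.3%, 11.1 to 15.9), against 6.79% (6.15 to 7.49) with GATA6 only, 4.21% (3.26 to 5.43) with NKX6.1 only and 1.46% (1.36 to 1.56) of HNF6 alone. Among regions in the strongest quartile group of all those with HNF6 (scores from 167) the shares were 16.6% (13.7 to 19.99), 8.86% (7.91 to 9.91), 6.06% (4.46 to 8.17) and 3.62% (3.30 to 3.97), so the order was the same among strong regions. Within that quartile group the members still had the higher HNF6 scores, a median of 703.5 against 505 with GATA6 only, and the wider regions, 485 against 424.5 bp, and the part of both in this difference was not tested.

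The 3 factors lay close to each other, which the required overlap and the widths of the regions largely fix. The distances are therefore a description. Midpoints stood in for summits, which the lists do not give. GATA6 lay a median of 67.5 bp from HNF6 (quartiles 32 and 130.5), NKX6.1 a median of 75 bp from HNF6 (30.5 and 152.5) and NKX6.1 a median of 57.5 bp from GATA6 (27 and 121). The outermost of the 3 midpoints were a median of 116 bp apart (63 and 198), within 200 bp in 591 members (75.7%) and within 50 bp in 142 (18.2%). The longest distance was 816 bp. In regions without the third factor the pairs were closer: a median of 61.25 bp for GATA6 and HNF6 without NKX6.1, and 47.5 bp for NKX6.1 and HNF6 without GATA6. Members were also wider than these classes, at a median of 503 against 429 and 327.5 bp, and the part of width in the spacing was not tested.

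The order of the factors along the DNA varied among members. GATA6 was between the other 2 in 281 of 778 members (36.1%, 32.8 to 39.5), NKX6.1 in 252 (32.4%, 29.2 to 35.8) and HNF6 in 245 (31.5%, 28.3 to 34.8), with 3 members left out for equal midpoints. The intervals of the 3 shares overlap. GATA6 and NKX6.1 lay on the same side of HNF6 in 533 members (68.5%, 65.2 to 71.7), and these are the members in which HNF6 was not in the middle. NKX6.1 was nearer to GATA6 than to HNF6 in 415 of 781 (53.1%, 49.6 to 56.6). The median spacing stayed between 106 and 137 bp over score groups: by quartile groups of the members' HNF6 score the median outermost distance was 111, 130, 124 and 107 bp from lowest to highest, by GATA6 score 129, 120.5, 120 and 106 bp, and by NKX6.1 score 113.5, 137, 121.5 and 111.5 bp.

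**Figure D3:**
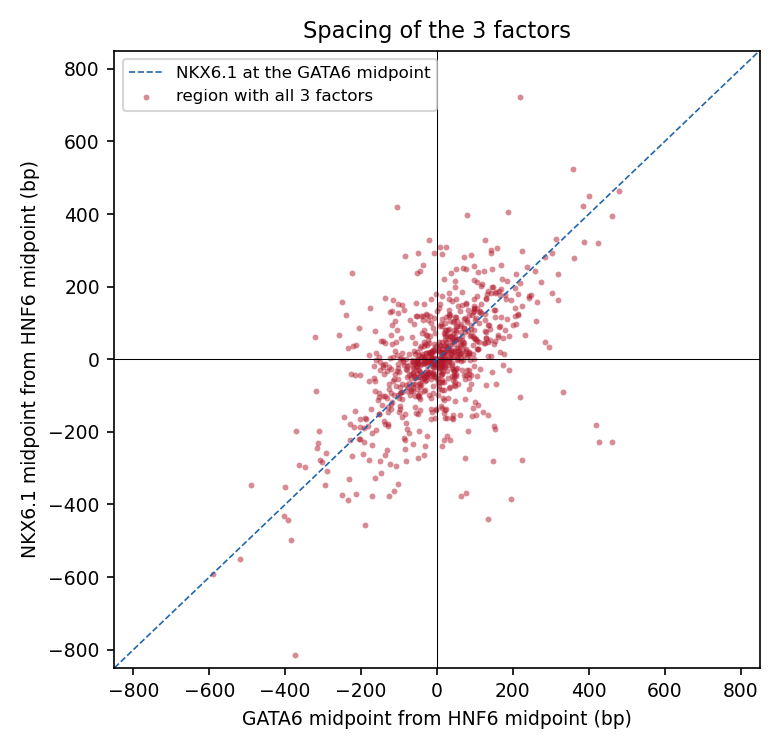
Each point is 1 of the 781 regions with all 3 factors, placed by the distance of the GATA6 midpoint (x axis, bp) and of the NKX6.1 midpoint (y axis, bp) from the HNF6 midpoint. Both distances start from the same HNF6 midpoint, which by itself makes them go together. Points near the dashed line have NKX6.1 close to GATA6, at any distance from HNF6. Most points lie near the centre, with median distances of 67.5 and 75 bp.

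The strongest members were named by mean percent rank over the 3 lists. The best, on chromosome 5 at 55584368 to 55585078, had a mean percent rank of 0.59, with GATA6 177.5 bp and NKX6.1 13.5 bp from HNF6. Chromosome 5 at 19880508 to 19881846 came next, at 0.91. It is 1339 bp wide, its HNF6 region was listed in 3 rows and its GATA6 region in 2, and NKX6.1 lay 377 bp from HNF6 on the side away from GATA6. Both were wider than the members' upper quartile of 649 bp.

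Chromosome 3 gave the tightest of the strong members. At 157573946 to 157574497 the outermost midpoints were 19.5 bp apart and 305 bp were common to the 3 factors. At 50248067 to 50248520 the distance was 34 bp, and at 189612945 to 189613490 (HNF6 1791, GATA6 1194, NKX6.1 356) it was 34.5 bp. In these 3 regions the midpoints of the listed regions nearly coincided, which does not place the binding sites of the factors.

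On chromosome 4 the region at 155609000 to 155609772 had an HNF6 score of 2916, with 1290 in GATA6 and 310 in NKX6.1, and 219 bp between the outermost midpoints. The region at 72049927 to 72050786 had scores of 3064, 952 and 366 in the same order, with NKX6.1 288.5 bp from HNF6 and GATA6 90 bp from it on the same side. Both were wider than the chromosome 3 regions, at 773 and 860 bp. The last of the 10 were on chromosome 8 at 11576052 to 11576858 (scores of 2060, 1301 and 273), on chromosome 18 at 6731596 to 6732272 (2787, 1452 and 248) and on chromosome 2 at 117086706 to 117087522 (1886, 706 and 977). In the last, NKX6.1 led, with a percent rank of 0.027 in its list against 0.54 in that of HNF6 and 6.12 in that of GATA6. None of the 10 overlapped an HNF6 region of day 5.

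HNF6 on day 5 was a readout the choice of members did not use. Of the 781 members, 6 overlapped a region of the day 5 list (0.768%, 0.353 to 1.67), against 0.347% of all merged regions with HNF6 on day 10 and 62 of 5434 (1.14%, 0.891 to 1.46) of those with HNF6 and GATA6 without NKX6.1. The intervals of the last class and of the members overlap. Regions with HNF6 and NKX6.1 without GATA6 had 1 of 1330 (0.0752%, 0.0133 to 0.425) and HNF6 alone had 156 of 57319 (0.272%, 0.233 to 0.318). Over all regions with HNF6, day 5 overlap was 0.0678% (0.0379 to 0.121) in the weakest quartile group by HNF6 score and 0.857% (0.726 to 1.01) in the strongest. All 6 members were in the strongest quartile group, where the share was 1.12% (0.514 to 2.42) for members and 1.54% (1.16 to 2.03) with GATA6 only. In the same quartile group it was 0.155% (0.0274 to 0.874) with NKX6.1 only and 0.705% (0.570 to 0.872) for HNF6 alone. The part of the HNF6 score in the members' share was not tested.

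The 6 members seen on both days were strong in HNF6 and varied in the other factors. Their HNF6 scores ran from 1566 to 3818, all within the strongest 1% of the day 10 list. On chromosome 7, the region at 83807179 to 83807764 scored 3818 in HNF6, 3651 in GATA6 and 72 in NKX6.1, and its day 5 region scored 101. The region on chromosome 15 at 69853469 to 69854067 had the strongest NKX6.1 of the 6, at 240, beside an HNF6 score of 1566 and a GATA6 score of 157. The highest day 5 score, 263, was that of chromosome 12 at 71832624 to 71833208, where HNF6 scored 1958, GATA6 656 and NKX6.1 37 on the later days.

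The other 3 lay on chromosome 9 at 127355683 to 127356305 (HNF6 2348, GATA6 141, NKX6.1 51), on chromosome 7 at 46734571 to 46735174 (1735, 158 and 37) and on chromosome 22 at 45402533 to 45403835 (2411, 36 and 79). The day 5 score of the second of these, 22, was the lowest in the day 5 list.

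Members lay far apart on the chromosomes, with a median of 1776 kb between neighbouring members (quartiles 649.1 and 4434). Another member lay within 100 kb of 98 members (12.5%, 10.4 to 15.1). Over all merged regions, 8.26% had a member other than themselves at that distance, and the share was 8.69% (7.97 to 9.47) for HNF6 and GATA6 without NKX6.1, 6.99% (5.74 to 8.49) for HNF6 and NKX6.1 without GATA6, 8.35% (8.13 to 8.58) for HNF6 alone and 7.52% (7.07 to 7.998) for NKX6.1 alone. At 25 kb the share was 4.35% (3.13 to 6.02) for members and 2.87% (2.46 to 3.35) with GATA6 only, and these intervals overlap. At 500 kb the share was 35.6% (32.3 to 39.0) for members and 29.2% (28.0 to 30.5) with GATA6 only. With only regions scoring at least 50 kept in each list, the share was 5.15% (3.43 to 7.68) for members, 22 of 427. It was 4.97% (4.33 to 5.70) with GATA6 only and 4.91% (4.70 to 5.12) for HNF6 alone, and the intervals overlapped. Classes were formed anew there, so a member that lost only its NKX6.1 region counted as a region without NKX6.1. With so few members, the wide interval cannot show whether the higher share was lost. Members count in pairs here, since each is the neighbour of the other, so the members' interval is too narrow.

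**Figure D4:**
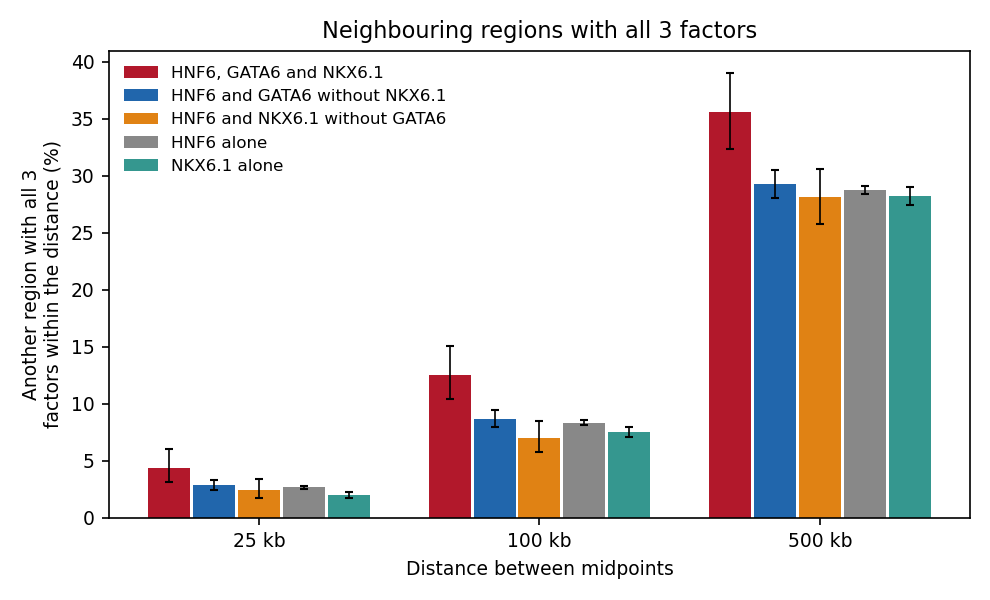
Share of regions of each class (bars, percent, with Wilson 95% intervals) that had another region with all 3 factors within 25, 100 or 500 kb. The bar of the members is the highest at each distance, 12.5% at 100 kb against 6.99 to 8.69% for the other classes. At 25 kb the intervals of members and of regions with HNF6 and GATA6 without NKX6.1 overlap.

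Nearby regions with HNF6, alone or with other factors, were also more frequent around members. Another region with HNF6 lay within 10 kb of 63.4% (59.9 to 66.7) of members, against 56.5% (55.2 to 57.8) with GATA6 only and 48.2% (47.8 to 48.6) of HNF6 alone. Another region with NKX6.1 lay within that distance of 17.5% (15.03 to 20.4) of members, against 14.8% (13.9 to 15.8) with GATA6 only and 15.3% (13.4 to 17.3) with NKX6.1 only. For another region with GATA6 the shares were 12.04% (9.94 to 14.5) and 11.4% (10.6 to 12.2) for members and for the class with GATA6 only. The intervals of members and the GATA6 class were apart for HNF6 and overlapped for NKX6.1 and GATA6.

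Members with a gap of at most 100 kb between them were joined to runs. There were 44 runs, of which 38 were pairs, and 683 members stood alone. The longest run, on chromosome 8 from 37079998 to 37310576, held 5 members in 230.6 kb among 16 merged regions. The 5 were unlike in strength, with HNF6 scores of 2514, 170, 1713, 2186 and 284 in the order of position, GATA6 scores of 475, 116, 654, 66 and 319, and NKX6.1 scores of 60, 351, 104, 73 and 324. The 2 members with low HNF6 scores there had the high NKX6.1 scores.

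The next runs held 4 members each. That on chromosome 15 from 96714139 to 96965899 was the richest in other regions, with 24 regions of HNF6 alone, 3 of NKX6.1 alone and 1 of HNF6 and GATA6. Its outer members were strong, the first in HNF6 (score 2994, with 1175 for GATA6) and the last in NKX6.1 (593, with 992 for GATA6). That on chromosome 17 from 46291041 to 46371714 was made of modest members, with HNF6 scores of 47, 320, 128 and 185. Runs of 3 lay on chromosome 15 from 53745404 to 53815837, on chromosome 2 from 67264842 to 67367371 and on chromosome 3 from 111237881 to 111325845.

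**Figure D5:**
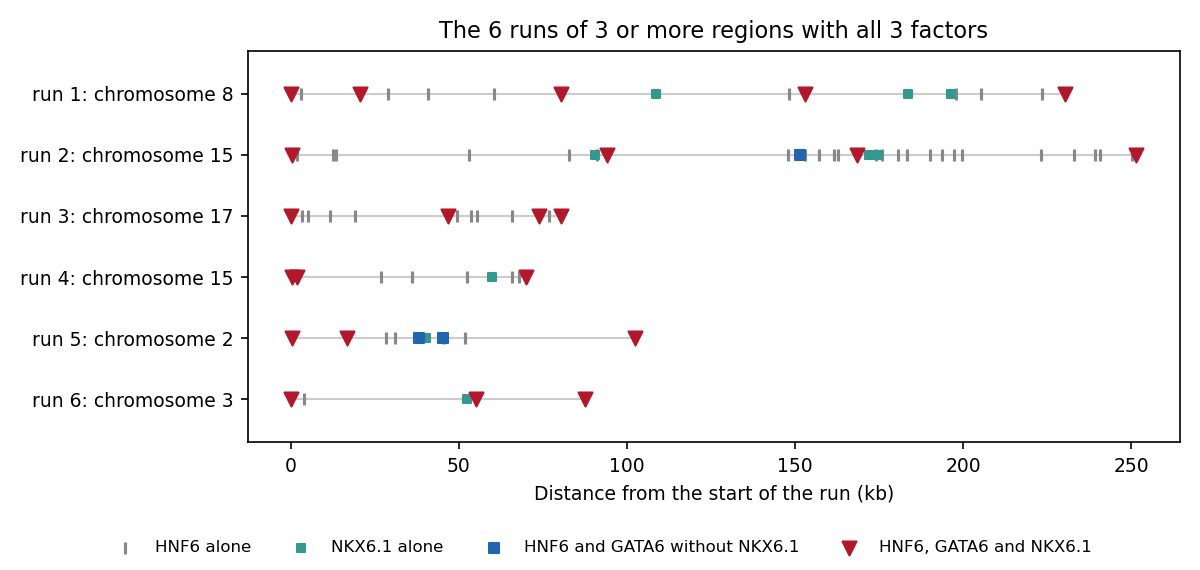
The 6 runs of 3 or more regions with all 3 factors, drawn from the start of each run (x axis, kb). Red triangles are members, blue squares regions with HNF6 and GATA6, teal squares NKX6.1 alone and grey ticks HNF6 alone. The run on chromosome 8 holds 5 members and that from 96714139 on chromosome 15 holds 24 regions of HNF6 alone.

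The spread of members over the 24 chromosomes was set beside that of the other regions with HNF6 and GATA6, with no test. Chromosome 15 was the single one where the intervals lay apart, with 38 members (4.87%, 3.56 to 6.61) against 2.32% (1.95 to 2.75) of the regions without NKX6.1. There 23.2% (17.4 to 30.2) of the regions with HNF6 and GATA6 held NKX6.1, set beside 12.6% over the genome. Counted as runs, to count neighbours once, chromosome 15 held 31 of 727 (4.26%, 3.02 to 5.99). The regions without NKX6.1 were not counted as runs, so this share has no like value beside it. With scores of at least 50 it held 4.92% (3.24 to 7.40) of the members against 2.52% (2.08 to 3.07). The latter comparison used classes formed anew from the regions that were kept. The X chromosome held 4 members (0.512%, 0.199 to 1.31) against 1.51% (1.22 to 1.87), with intervals that overlap.

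The rule has an edge at 1 bp of overlap, and few members lay near it. NKX6.1 overlapped HNF6 or GATA6 by at most 10 bp in 2 members and by at most 50 bp in 22. The least overlap, 5 bp, was on chromosome 7 at 27135723 to 27136193 (HNF6 60, GATA6 23, NKX6.1 98), followed by 6 bp on chromosome 5 at 123997816 to 123998408 (195, 165 and 75). Just outside, 10 regions with HNF6 and GATA6 had an NKX6.1 region at a gap of at most 50 bp and 38 at a gap of at most 200 bp. The nearest miss, with a gap of 1 bp, was on chromosome 12 at 121124442 to 121124826 (63 for HNF6 and 220 for GATA6). The median HNF6 score was 255 for the 22 inside and 201.5 for the 38 outside, and the median GATA6 score was 122 and 106.5.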

How the data were processed

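Bowtie2 2.3.4.1, MACS2 2.1.1.20160309 and hg19 are named without roles, per the submitters' processing notes. For each library the authors deposited a list without header of positions, peak names and a score, whose unit the sources leave unstated. Rows of 1 interval were merged, keeping the highest score, which left 64919 HNF6, 6285 GATA6 and 14627 NKX6.1 regions, and 250 for HNF6 on day 5. The lowest score was 13 (22 on day 5), so weaker regions would not appear. The depth of the libraries is unknown from the lists. Lists were merged with Python 3.11.15 and pandas 2.3.3, which gave the same number of regions as bedtools, and the code was tested on simulated data. Where a member held several regions of a factor, the one with the highest score was used. Shares have Wilson 95% intervals (statsmodels 0.14.6). The members, lists and comparisons were chosen with earlier results of these data known. Named regions are the 10 with the lowest mean percent rank, all with day 5 HNF6, and runs with most members. The 5 longest runs were planned, and all 6 of at least 3 members are given because of ties. Genes near regions, position relative to genes and motifs were planned and not analysed here, because no hg19 gene annotation or sequence was used. No region is therefore named by a gene.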

Additional observations from a re-analysis of the deposited data

How the results depend on the processing

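Alternatives for overlap and score were set beside the values given, and 1 library per group left no replicate to leave out. The number of regions with all 3 factors was 781, and was 715 when 50% of the shorter region had to be covered, 692 with midpoints within 200 bp and 699 with a base pair common to all 3. It fell to 427 with scores of at least 50 in each list and to 272 when each factor had to score above its own list's median. Both settings leave fewer regions to start from. With scores of at least 50, 9.91% (9.055 to 10.84) of 4308 regions with HNF6 and GATA6 held NKX6.1, against 12.6% (11.8 to 13.4) with all scores. The 2 intervals lie apart, and the cause of the lower share was not tested. Regions with another member within 100 kb made up 12.5% of members and 8.69% of the regions with HNF6 and GATA6 alone. These shares were 4.35 and 2.87% at 25 kb, with overlapping intervals. They were 35.6 and 29.25% at 500 kb, and 5.15 and 4.97% with scores of at least 50. In the last setting classes were formed anew from the regions that were kept, and the intervals of the classes overlapped. Its 427 members were too few to show whether the gap between the classes was lost. The cause of the smaller gap was not tested. The other 22 alternative values, for percent ranks, rows per region, spacing, order, day 5 and chromosome 15, and the 3 other overlap counts among them, stayed within the counting interval of the value given or within 1.5 times the count. The alternatives for chromosome 15 were chosen after seeing the data. Gene neighbourhood, place in genes and motif content were planned and not run. The lists do not give depth, so its part in the number of members was not tested.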
